A study of Mus musculus with 12 samples.

Results

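Neutrophil and macrophage marker genes were followed across the colon arrays as a set of 37 genes chosen by symbol from what is known of the 2 cell types. They comprise 9 genes of neutrophil granule and cytosolic proteins, 8 genes of receptors on neutrophils and other inflammatory phagocytes, 6 genes that both cell types use, 7 genes of monocytes and tissue macrophages, and 7 genes of scavenger receptors and of alternative macrophage activation. Of the 37, 35 are named on the array and 33 passed the detection filter, out of 11933 genes tested in all. For Cd68, a lysosomal glycoprotein of macrophages, and Fpr1, a formyl peptide receptor, the probe annotation used here lists no probe, so they were not analysed. The 4 probes of Mpo, the myeloperoxidase of neutrophil granules, and the 1 probe of Elane, the neutrophil elastase, did not reach a detection p under 0.05 on 3 arrays. Both are genes that neutrophil precursors in the bone marrow transcribe and mature neutrophils have largely shut off.

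Whole-colon RNA of male mice aged 7 to 8 weeks was hybridised to Illumina bead arrays, 1 array per sample and 3 per group, in 4 groups: DAPP before DSS, DAPP during DSS, DSS, and control. DSS is dextran sulfate sodium, a polymer that injures the colon lining and gives mice colitis, and all groups other than control received it. DAPP appears in the labels as an abbreviation under a series title on polyphenols of apple peel, and the array columns add 200 to the first of these groups and 400 to the other without a unit, so timing and this number cannot be told apart. The labels call the samples biological replicates; strain, vehicle and length of treatment were not stated there. Levels are log2 normalised intensities, and a difference of 1 is a doubling of the intensity. Differences are given with their standard error from limma's model of all 12 arrays, n = 3 per group, and a gene was called where p, adjusted over the 11933 genes by Benjamini-Hochberg, was under 0.05. Changes of genes that no array of the dimmer group detected are lower bounds ("at least N-fold").

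Neutrophils are short-lived granulocytes that leave the blood within hours of injury, drawn by chemokines such as Cxcl1 and Cxcl2 that bind the receptor Cxcr2. They carry granules of antimicrobial proteins, among them the cathelicidin Camp and lactoferrin Ltf, which are transcribed late in their bone marrow maturation. Macrophages of the healthy gut are renewed from blood monocytes, which arrive through Ccr2 and take on Cx3cr1, Adgre1 (F4/80) and Mrc1 (CD206) as they mature. Chil3, Arg1, Retnla and Mrc1 are the textbook genes of the alternative activation that interleukins 4 and 13 induce in mouse macrophages, though Chil3 and Arg1 are also made by neutrophils or by inflammatory monocytes, and Retnla by epithelial and fat cells in other tissues.

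Several of these genes are neighbours in the mouse genome. Retnla and Retnlg, genes of the resistin-like family, lie 28.1 kb apart on chromosome 16 (chr16:48842609-48844461 and chr16:48872608-48874498, RefSeq annotation of GRCm38.p6), and they moved in opposite directions with DSS. Their promoters, here the 250 bases before to 50 after the annotated start, are shown because 223 aligned positions of the pair were 78.5% identical. Capitals mark matches on either strand to TTGCNNAA, a motif of the C/EBP factors of the myeloid lineage, or to GAGGAAGT, a motif of PU.1. This pair was added after the values had been seen.
Retnlg, chr16:48872358-48872657, plus strand: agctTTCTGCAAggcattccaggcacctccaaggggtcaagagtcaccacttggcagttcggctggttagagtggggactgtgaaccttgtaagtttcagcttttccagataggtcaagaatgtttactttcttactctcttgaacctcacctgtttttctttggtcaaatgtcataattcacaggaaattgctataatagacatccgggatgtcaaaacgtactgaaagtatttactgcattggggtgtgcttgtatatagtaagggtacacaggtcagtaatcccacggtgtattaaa
Retnla, chr16:48842359-48842658, plus strand: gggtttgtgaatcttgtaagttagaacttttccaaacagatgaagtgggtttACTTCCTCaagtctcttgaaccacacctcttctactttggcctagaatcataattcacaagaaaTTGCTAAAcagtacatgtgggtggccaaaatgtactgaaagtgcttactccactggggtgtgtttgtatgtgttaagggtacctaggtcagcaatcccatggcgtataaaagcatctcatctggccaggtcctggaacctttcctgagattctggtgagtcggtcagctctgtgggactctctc
The Retnlg window holds 1 match to the C/EBP motif, starting at -246 relative to the annotated start. The Retnla window holds 1 match to the C/EBP motif, at -134, and 1 to the PU.1 motif, at -198. Both Retnla matches lie in the aligned stretch, where the Retnlg window has no exact match to either motif. Letters that differ slightly from a motif were not searched for.

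Camp, Ngp and Ltf, secondary granule genes, lie on 1 stretch of chromosome 9 (chr9:109847377-109849456, chr9:110419808-110423012 and chr9:111019292-111042766). Their promoters are shown because Camp and Ngp had the lowest values of the 33 genes in both comparisons of DAPP during DSS with another DSS-treated group, and Ltf is their granule partner. That of Mrc1, a macrophage gene, stands beside them.
Ngp, chr9:110419558-110419857, plus strand: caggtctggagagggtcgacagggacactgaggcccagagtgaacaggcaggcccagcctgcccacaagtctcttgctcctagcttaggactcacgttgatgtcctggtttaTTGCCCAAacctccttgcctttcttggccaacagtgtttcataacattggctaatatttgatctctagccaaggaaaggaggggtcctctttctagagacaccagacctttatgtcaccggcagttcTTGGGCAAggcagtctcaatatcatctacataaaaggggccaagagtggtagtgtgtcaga
Ltf, chr9:111019042-111019341, plus strand: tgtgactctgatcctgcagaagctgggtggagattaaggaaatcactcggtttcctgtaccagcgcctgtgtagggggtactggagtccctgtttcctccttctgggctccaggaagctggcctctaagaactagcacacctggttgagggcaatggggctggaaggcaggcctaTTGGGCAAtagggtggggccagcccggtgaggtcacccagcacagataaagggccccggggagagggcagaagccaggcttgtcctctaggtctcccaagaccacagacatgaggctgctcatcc
Camp, chr9:109849407-109849706, minus strand: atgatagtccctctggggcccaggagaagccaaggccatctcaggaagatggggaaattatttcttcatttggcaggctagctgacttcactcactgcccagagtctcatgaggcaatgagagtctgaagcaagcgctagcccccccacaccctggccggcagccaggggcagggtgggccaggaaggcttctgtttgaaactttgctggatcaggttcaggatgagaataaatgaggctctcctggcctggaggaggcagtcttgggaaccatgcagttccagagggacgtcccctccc
Mrc1, chr2:14229164-14229463, plus strand: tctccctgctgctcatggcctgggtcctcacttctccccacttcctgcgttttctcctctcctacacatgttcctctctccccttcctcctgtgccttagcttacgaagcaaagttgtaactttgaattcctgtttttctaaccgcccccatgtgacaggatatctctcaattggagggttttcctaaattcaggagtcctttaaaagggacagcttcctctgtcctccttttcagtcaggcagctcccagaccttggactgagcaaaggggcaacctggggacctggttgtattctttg
The C/EBP motif occurs at -138 and -11 in Ngp and at -75 in Ltf, and neither motif occurs in the Camp and Mrc1 windows. Of the 37 genes, 28 have a promoter in the RefSeq table (29 windows). The C/EBP motif was present for 4 of 9 granule genes (Ngp, Ltf, Retnlg and Stfa1), 1 of 6 receptor genes (Clec4e), 1 of 4 shared genes (Fcgr3), 0 of 4 macrophage genes and 1 of 5 genes of alternative activation (Retnla), against 10.8% of all 32851 promoter windows. The PU.1 motif was present for 3 genes, Mpo, Elane and Retnla, against 3.2% of all windows. No match to 1 motif overlapped a match to the other in the windows shown. These are matches of letters, and binding was not measured.

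Before the comparisons, 3 features of the arrays bear on the values. Raw signal averaged 601 to 728 on arrays of the DAPP groups and 433 to 507 on those of DSS and control. Replicate 1 of DAPP before DSS stood apart, with correlations of 0.828 to 0.914 to the other arrays over genes. Its B and plasma cell list (2 genes) averaged 11.3, against 7.48 to 9.14 on the other 11 arrays. Alas2, a gene of red blood cell precursors, stood at 9.68 there, against 4.68 to 6.84. On the same array the 10 colon epithelial genes averaged 11.09, against 11.89 to 12.53 on the other 11. The neutrophil and macrophage genes also had their highest averages there, 9.366 and 9.405, against at most 9.233 and 8.887 on the other 11. The pancreatic enzyme genes, 13 genes of a neighbouring organ, averaged 13.9, 12.4 and 13.2 in DAPP before DSS, 8.91, 6.14 and 14.3 in DAPP during DSS, 6.57, 13.34 and 14.04 in DSS, and 8.31, 6.57 and 6.46 in control. They therefore varied between arrays of the same group. The part of these features in the results below was not tested, other than by the fits named beside them.

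**Figure D1:**
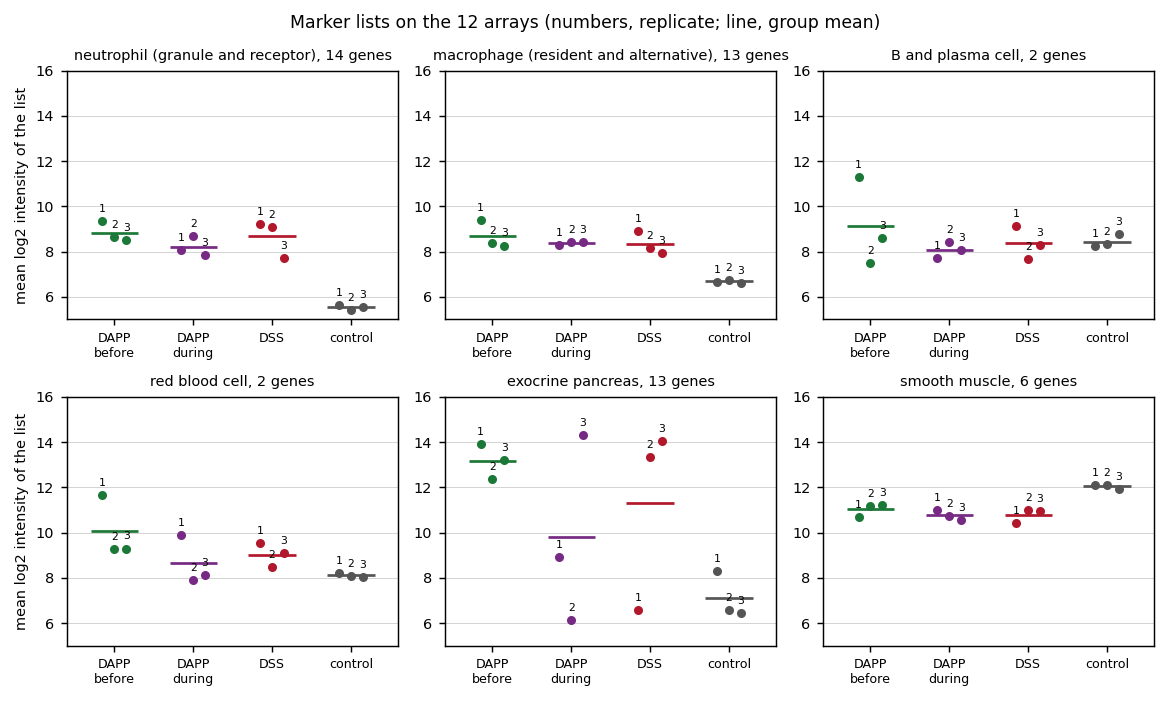
Mean log2 normalised intensity of 6 marker lists on each of the 12 arrays (vertical axis), by group (horizontal axis); numbers give the replicate and lines the group mean. The neutrophil and macrophage lists are higher on all 9 DSS-treated arrays than on the control arrays. Replicate 1 of DAPP before DSS is the highest array in the neutrophil, macrophage, B and plasma cell and red blood cell lists.

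DSS raised most of the neutrophil and macrophage genes, and lowered 1 of them. Of the 33 genes tested, 22 were higher in DSS than in control, where 3.91% of all genes were higher, and 1 was lower, where 2.81% of all genes were lower. The 14 neutrophil genes tested had a median difference of 2.54 on the log2 scale (2.19 with undetected genes at their bounds) and the 13 macrophage genes 1.34 (1.23 at the bounds), against -0.045 for all genes. Both without background correction and on the authors' values the 2 medians were 1.2 and 0.915. In whole-colon RNA, more cells of a type and more RNA per cell cannot be told apart. Of the 33, 16 were detected on no control array and passed the filter through the other groups, so a rise was built into their passing. Of the 12 detected on all 3 control arrays, 6 were called higher and 1 lower, where 3.11% and 3.5% of the 9449 genes with the same detection were called.

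Of the 7 tested genes of neutrophil granules and cytosol, 5 were called higher with DSS, against 3.91% of all genes. All 7 differences were above 0, with a median of 3.42 (2.71 at the bounds). Retnlg, a resistin-like protein that mouse neutrophils secrete, had 12.57, 12.35 and 10.79 on the DSS arrays, against 5.91, 5.21 and 5.0 on the control arrays. Its difference of 6.53 ± 0.46 corresponds to 92.1-fold (limma adjusted p = 5.46e-06). It was detected on 1 of the 3 control arrays. Ltf, the iron-binding lactoferrin, had 9.11, 9.17 and 8.15 on the DSS arrays, against 5.12, 4.55 and 5.03 on the control arrays, none of which detected it. Its level was at least 9.74-fold higher (limma adjusted p = 4.98e-05).

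The stefin A genes Stfa1 and Stfa2, cysteine protease inhibitors of neutrophil cytosol, are closely related neighbours on chromosome 16 whose probes may share signal. Stfa1 had 9.23, 9.12 and 6.81 in DSS, against 5.08, 5.0 and 4.81 in control, which made it at least 7.26-fold higher (limma adjusted p = 0.0293). Stfa2 had 8.84, 9.03 and 6.84, against 4.60, 4.84 and 4.69, and was at least 6.54-fold higher (limma adjusted p = 0.0214). Both were lowest on replicate 3 among the DSS arrays. Pglyrp1, a peptidoglycan recognition protein that the colon lining also makes, had 13.50, 13.03 and 13.42 in DSS, against 12.18, 12.06 and 12.08 in control, and was bright in both. Its rise of 1.21 ± 0.22 (limma adjusted p = 0.00668) was the smallest of the called granule genes.

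Camp and Ngp, which encode the cathelicidin precursor and a secondary granule protein of the same protein superfamily, did not pass the threshold. Ngp had 7.40, 8.66 and 5.30 in DSS, against 4.60, 4.56 and 4.92 in control. All DSS arrays lay above all control arrays, but Ngp was detected on only 2 DSS arrays, not on replicate 3, and on no control array. Its level was at least 3.02-fold higher (limma adjusted p = 0.0643). Camp had 7.12, 7.20 and 6.22 in DSS, against 4.74, 5.73 and 5.89 in control, a difference of 1.39 ± 0.72 (limma adjusted p = 0.324). Without replicate 1 of DAPP before DSS, where Camp stood at 9.85, the shared spread was smaller and the same difference had an adjusted p of 0.019.

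Of the 7 tested receptors of neutrophils and inflammatory phagocytes, 6 were called higher with DSS, against 3.91% of all genes. All 7 differences were above 0, with a median of 2.49 (1.89 at the bounds). Clec4d and Clec4e, C-type lectin receptors for microbial and damage-derived glycolipids, are neighbours on chromosome 6. Clec4d had 10.41, 10.19 and 8.79 on the DSS arrays, against 4.57, 4.53 and 4.71 on the control arrays, and was at least 19.3-fold higher (limma adjusted p = 8.1e-05). Fpr2, a formyl peptide receptor that senses bacterial peptides and serum amyloid A, had 11.73, 11.29 and 9.55, against 6.15, 5.39 and 5.61. Its difference was 5.14 ± 0.45 (limma adjusted p = 3.39e-05), and as for Clec4d every DSS array lay above every control array. Clec4e had 8.74, 7.82 and 7.48 in DSS, against 6.08, 4.99 and 5.50 in control, a difference of 2.49 ± 0.36 (limma adjusted p = 0.00135), while its dimmer kept probe differed by 0.68 (limma adjusted p = 0.601 in a fit of all probes).

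Csf3r, the receptor for the neutrophil growth factor G-CSF, had 8.01, 7.34 and 6.90 in DSS, against 4.71, 4.64 and 5.15 in control, which made it at least 3.71-fold higher (limma adjusted p = 0.000384). Cxcr2, the receptor for Cxcl1 and Cxcl2, had 7.60, 7.40 and 5.93, against 4.67, 4.77 and 4.53, and was at least 2.74-fold higher (limma adjusted p = 0.0178). Trem1 and Trem3, activating receptors encoded 0.75 kb apart on chromosome 17 that signal through Tyrobp, were detected on no control array. Trem1 was at least 1.84-fold higher and passed (limma adjusted p = 0.0187), although its other kept probe did not (difference 0.54, limma adjusted p = 0.431 in a fit of all probes). Trem3 was at least 3.36-fold higher and did not pass (limma adjusted p = 0.063). In both every DSS array lay above every control array. Over the granule and receptor genes together, all 14 tested had non-overlapping groups with DSS higher, against 13.8% of all genes. Of these 14, 9 were detected on no control array and passed the filter through the other groups. A rise was built into the passing of these 9.

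**Figure D2:**
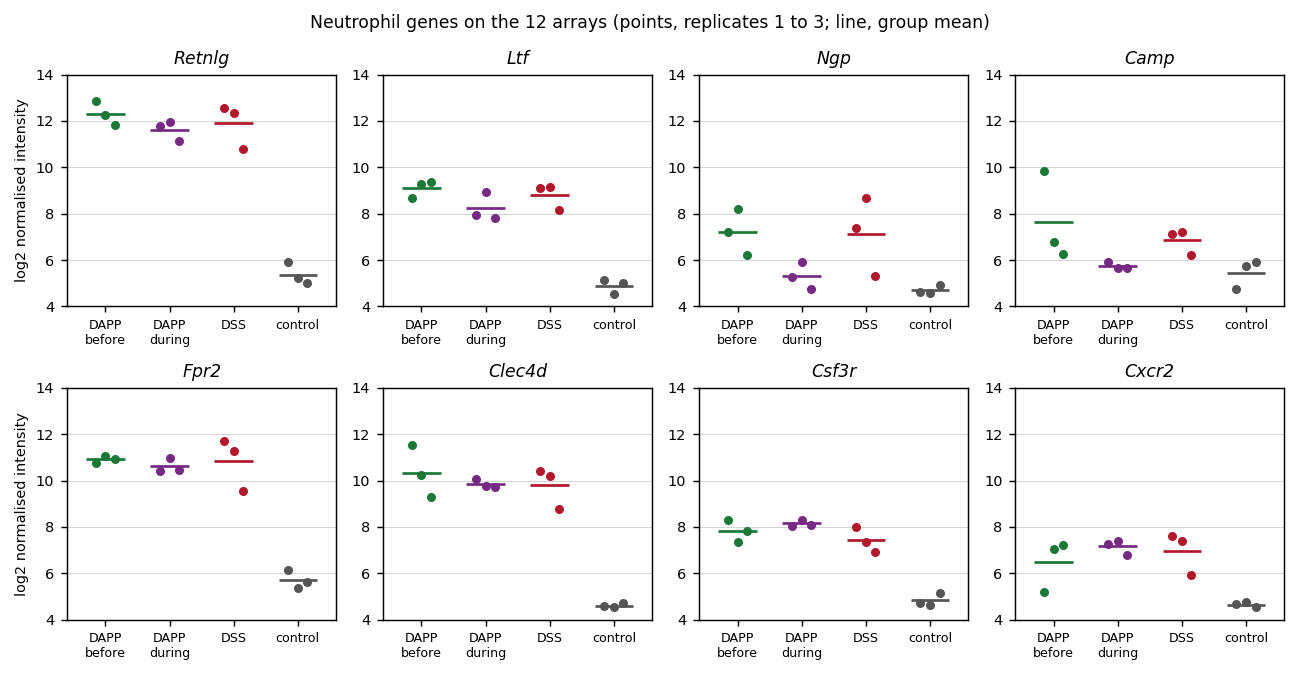
Log2 normalised intensity (vertical axes) of 4 granule genes and 4 receptor genes on the 12 arrays, by group; points are arrays and lines group means. In all 8 genes the DSS arrays lie above the control arrays, and for Ngp and Camp the DAPP during DSS arrays lie beside the control arrays.

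Of the 6 genes that neutrophils and macrophages share, 5 were called higher with DSS, against 3.91% of all genes. All 6 differences were above 0, with a median of 1.90. Fcer1g and Tyrobp, the signalling adaptors of Fc and Trem receptors, rose by 2.43 ± 0.30 and 2.38 ± 0.41 (limma adjusted p = 0.000522 and 0.00399), and Fcgr3, an activating Fc receptor for antibodies, by 2.40 ± 0.33 (limma adjusted p = 0.00107). All 3 were detected on every array. Fcer1g had 12.49, 11.55 and 11.07 in DSS, against 9.06, 9.31 and 9.43 in control. Lyz2, the lysozyme of myeloid cells, rose by 1.42 ± 0.31 (limma adjusted p = 0.0152). A dimmer kept probe of Lyz2, detected on 1 DSS array, differed by 0.88 (limma adjusted p = 0.399 in a fit of all probes). Itgb2, the beta chain of the leukocyte integrins, rose at least 1.74-fold (limma adjusted p = 0.0419). Its partner Itgam (CD11b), the integrin chain by which myeloid cells are usually sorted, stood at 5.86, 4.96 and 4.82 in DSS, against 4.92, 5.49 and 4.56 in control, and only 1 of these 6 arrays detected it. Its groups overlapped (limma adjusted p = 0.773).

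Of the 6 tested genes of monocytes and tissue macrophages, 2 were called higher with DSS, against 3.91% of all genes. All 6 differences were above 0, with a median of 1.17 (0.82 at the bounds). Fcgr1 (CD64), a high-affinity Fc receptor of monocyte-derived macrophages, had 8.08, 7.02 and 7.12 in DSS, against 5.30, 4.71 and 5.10 in control, which made it at least 3.68-fold higher (limma adjusted p = 0.0033). Ccr2, the chemokine receptor of incoming monocytes, had 6.80, 5.91 and 5.75, against 4.59, 4.98 and 4.89, and was at least 1.55-fold higher (limma adjusted p = 0.0229). Adgre1 (F4/80) had 9.88, 8.78 and 8.97 in DSS, against 8.39, 8.98 and 8.87 in control, a difference of 0.47 ± 0.35 with a 95% interval of -0.30 to 1.23 (limma adjusted p = 0.543). A dimmer probe of Adgre1, detected on all 12 arrays, differed by 1.09 with no overlap (limma adjusted p = 0.17 in a fit of all probes). Cx3cr1, the fractalkine receptor of resident gut macrophages, had 7.58, 6.60 and 8.48, against 7.28, 7.35 and 7.39, a difference of 0.21 ± 0.47 with an interval of -0.80 to 1.23 (limma adjusted p = 0.87). For Cx3cr1, and for the brightest probe of Adgre1, the groups overlapped.

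Csf1r, the receptor for the macrophage growth factor M-CSF, and Aif1 (Iba1), an actin-binding protein of macrophages, lay between these. Csf1r had 9.75, 8.45 and 8.62 in DSS, against 8.08, 7.88 and 7.81 in control, a difference of 1.01 ± 0.32 (limma adjusted p = 0.0855). Aif1 had 10.32, 8.63 and 8.88, against 7.59, 7.85 and 7.74, a difference of 1.56 ± 0.56 (limma adjusted p = 0.14). In both, every DSS array was above every control array, and replicate 1 was the highest of the DSS arrays. The difference between the neutrophil and the macrophage genes in how often they were called was not tested.

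The genes of scavenger receptors and of alternative activation split. With DSS, 4 of 7 were called higher and 1 lower, against 3.91% and 2.81% of all genes. Differences were above 0 for 6 of the 7. Chil3, a chitinase-like protein (Ym1), had 11.88, 11.44 and 10.04 on the DSS arrays, against 4.81, 4.79 and 5.07 on the control arrays, none of which detected it. It was at least 48.3-fold higher (limma adjusted p = 1.68e-05). Arg1, the arginase that depletes arginine, had 9.37, 9.36 and 8.78, against 5.66, 5.61 and 5.03, a difference of 3.74 ± 0.57 (limma adjusted p = 0.00206). The scavenger receptors Cd163, which takes up haemoglobin bound to haptoglobin, and Marco, which binds bacteria, rose by 2.22 ± 0.56 (limma adjusted p = 0.0352) and at least 3.20-fold (limma adjusted p = 0.0427).

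Retnla changed in the opposite direction to its neighbour Retnlg and from the other alternative-activation genes. It had 6.48, 5.75 and 5.84 on the DSS arrays, against 8.93, 8.60 and 8.39 on the control arrays, with no overlap, and all 6 arrays detected it. It fell by 2.61 on the log2 scale (SE 0.43, limma adjusted p = 0.00307). Non-overlapping groups with DSS lower were found for 16.7% of all genes. Mrc1, the mannose receptor of resident macrophages, had 10.69, 10.45 and 9.84 in DSS, against 8.93, 9.41 and 8.94 in control, a difference of 1.23 ± 0.50 (limma adjusted p = 0.191). Msr1, the scavenger receptor A, was detected on only 2 DSS arrays and on no control array, and was at least 1.34-fold higher (limma adjusted p = 0.148). In both genes the arrays of DSS lay above those of control without passing the threshold.

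**Figure D3:**
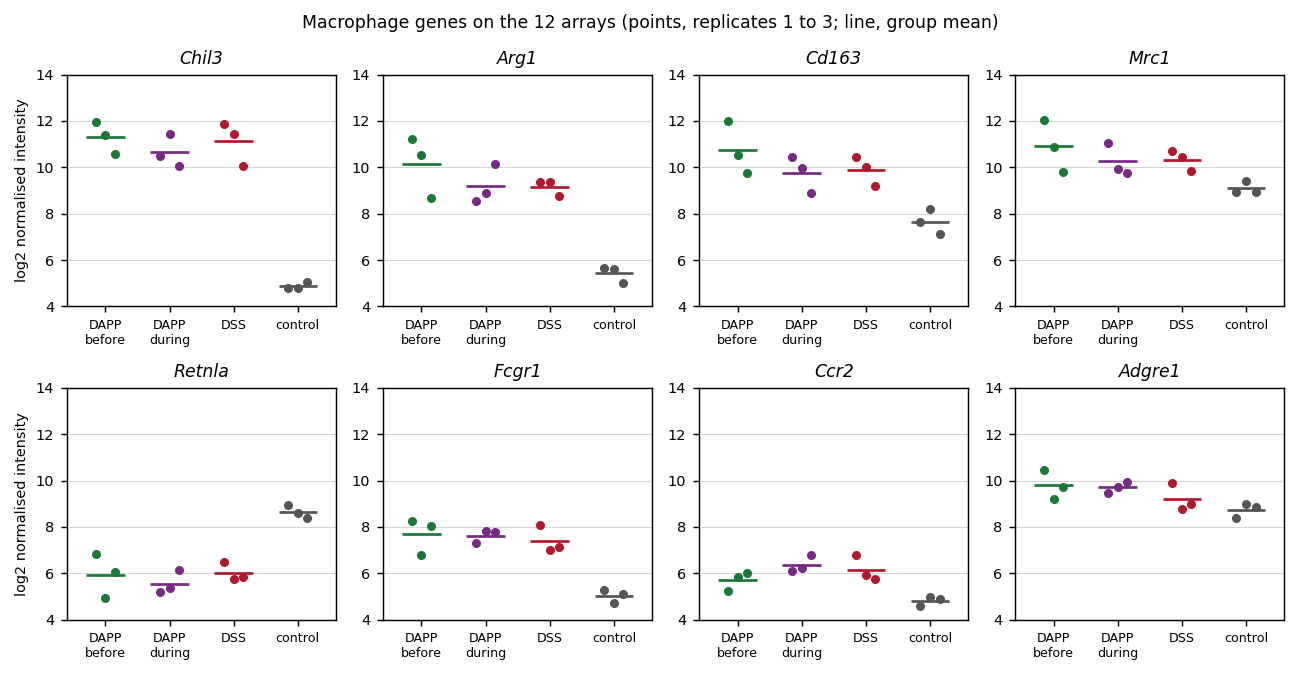
Log2 normalised intensity (vertical axes) of 8 macrophage genes on the 12 arrays, by group; points are arrays and lines group means. Chil3 and Arg1 are above the control arrays on all 9 DSS-treated arrays, Retnla is below them, and Adgre1 overlaps between DSS and control.

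**Figure D4:**
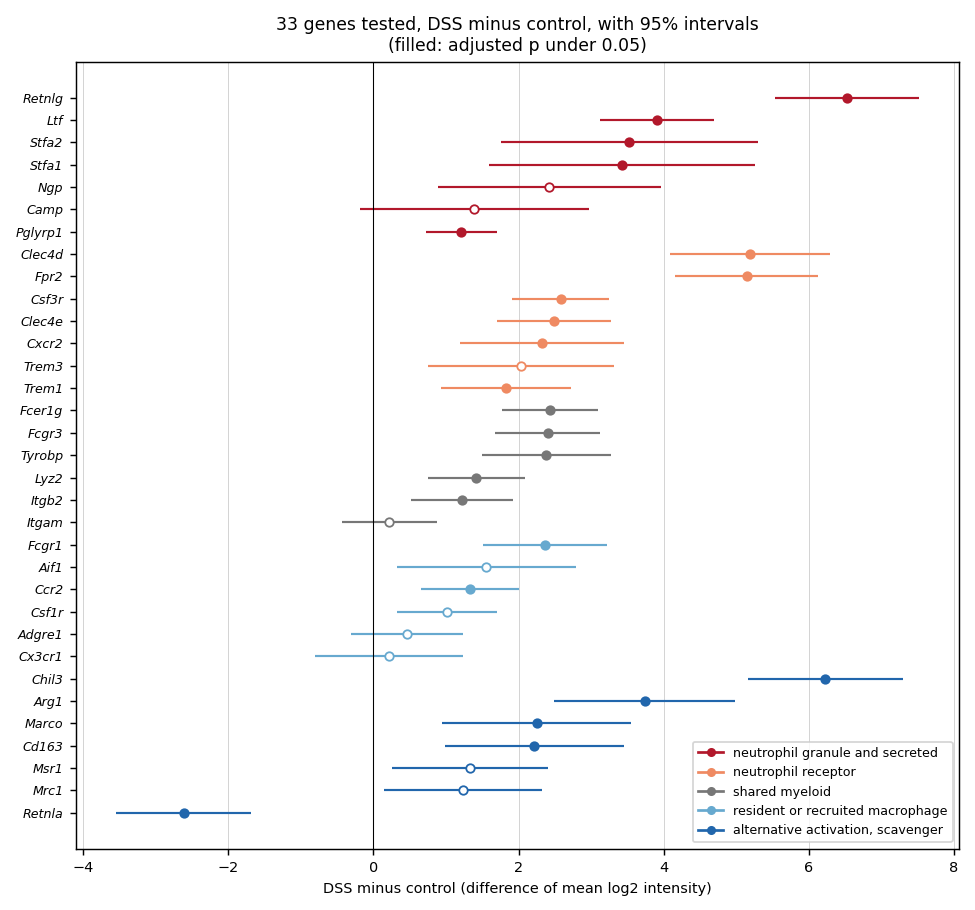
Difference of mean log2 intensity, DSS minus control (horizontal axis), with 95% intervals from limma for the 33 tested genes, by role; filled points passed an adjusted p of 0.05. The points are fitted differences, which for the 16 genes undetected in control are set against background; Retnla alone lies below 0.

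The alternatives were other processing choices and fits that left out 1 array. Of the 23 calls, 14 held under every alternative in which the gene could be tested: Ltf, Retnlg, Pglyrp1, Csf3r, Fpr2, Clec4d, Clec4e, Fcgr3, Tyrobp, Fcer1g, Fcgr1, Chil3, Arg1 and Retnla. The other 9 (Stfa1, Stfa2, Cxcr2, Trem1, Itgb2, Lyz2, Ccr2, Cd163 and Marco) each lost the call under 3 to 17 of 23 or 24 alternatives, with the same direction in each. Of the member genes not called, 7 gained the call under at least 1 alternative. The count of 23 became 14 without control replicate 1 or without control replicate 2, 15 without control replicate 3 or DSS replicate 1, 16 without DSS replicate 2, and 28 when the array that stood apart was left out.

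The other genes of these pathways, in lists chosen with earlier results of these data known, were counted in the same comparison. A gene is counted as risen or fallen where it was called, as 3.91% and 2.81% of all genes were. Of 21 other neutrophil genes tested, 14 rose with DSS and 0 fell, with a median of 1.87, led by the calprotectin subunits S100a9 (7.10 ± 0.42) and S100a8 (6.85 ± 0.37) and the siderophore-binding lipocalin Lcn2 (6.30 ± 0.42). Of 5 neutrophil-attracting or neutrophil-producing factors tested, 2 rose, Cxcl1 by 6.02 ± 0.54 and Cxcl2 at least 41.2-fold. Cxcl1 had 13.14, 13.40 and 11.10 in DSS, against 7.37, 6.09 and 6.10 in control. Replicate 3 was again the lowest of the DSS arrays, as it was for Retnlg, Stfa1, Ngp and Chil3.

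Of 28 other macrophage genes tested, 13 were called higher and 0 lower, against 3.91% and 2.81% of all genes. Their median was 1.39. Those named here by fitted difference are the chemokine Ccl9 (2.43 ± 0.41), the membrane glycoprotein Gpnmb (2.13 ± 0.32) and the lipid receptor Trem2 (at least 3.34-fold). Of 7 monocyte-attracting factors tested, 3 rose: the chemokines Ccl8 by 4.78 ± 0.49, Ccl2, the main ligand of Ccr2, at least 8.84-fold, and Ccl7 by 3.55 ± 0.41. Of 9 other genes of alternative activation tested, 3 rose: Chil4, a chitinase-like relative of Chil3, at least 34.0-fold, the lectin Mgl2 by 1.34 ± 0.32 and the transglutaminase Tgm2 by 1.15 ± 0.27. The cytokines that induce this programme were dim. Il4 was detected on 1 DSS array and on no control array. Il13 stood at 6.11, 5.74 and 5.10 in DSS, against 6.36, 5.81 and 5.65 in control (limma adjusted p = 0.654).

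Markers of other cells moved in the same comparison, where 3.91% of all genes were called higher and 2.81% lower. The counts given here are of called genes. The T cell genes tested rose in 2 of 3 cases and the fibroblast genes in 2 of 5, while 5 of 6 smooth muscle genes fell, with a list average of 10.41 to 10.99 on the DSS arrays, against 11.9 to 12.1 on the control arrays. Of the 4 mast cell and eosinophil genes tested, 2 rose, the mast cell proteases Mcpt1 and Cpa3, each detected on all 3 DSS arrays and on no control array. A rise was built into the passing of these 2. The other 2, Kit and Cma1, were not called. Kit had 8.44, 9.70 and 9.35 in DSS, against 10.02, 9.77 and 9.85 in control. Cma1 had 6.33, 5.84 and 6.19, against 5.25, 5.96 and 5.60. Mast cells also carry Fcer1g and Fcgr3. Epx, Prg2, Ccr3 and Siglecf, the defining genes of eosinophils, were not detected on enough arrays to be tested. Of the 10 colon epithelial genes, 0 were called. The part of these shifts in the results was not tested.

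In the comparison of DAPP before DSS with DSS alone, no gene was called in either direction (0% of all genes). The 14 neutrophil genes had a median difference of 0.27 and the 13 macrophage genes of 0.45, against 0.003 for all genes. Without replicate 1 of DAPP before DSS these medians were -0.016 and 0.002, without DSS replicate 3 they were -0.284 and 0.289, and without DSS replicate 1 they were 0.529 and 0.755. Retnlg had 12.87, 12.24 and 11.80 in DAPP before DSS, against 12.57, 12.35 and 10.79 in DSS, a difference of 0.41 ± 0.46 with a 95% interval of -0.59 to 1.40 (limma adjusted p = 0.866). Chil3 had 11.96, 11.40 and 10.56, against 11.88, 11.44 and 10.04 (interval of the difference -0.89 to 1.26). The largest difference among the 33 was that of Marco, at 9.86, 8.07 and 6.88, against 8.02, 7.14 and 6.45, a difference of 1.07 ± 0.60 (limma adjusted p = 0.851), with the highest value on the array that stood apart. None of the 33 genes had non-overlapping groups, where 3.71% of all genes lay higher and 2.77% lower without overlap, and 0 of 33 had an unadjusted p under 0.05, as 535 of all genes did.

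In the comparison of DAPP during DSS with DSS alone, again no gene was called (0% of all genes), and 3 of the 33 (Ngp, Csf3r and Clec4e) had an unadjusted p under 0.05, as 318 of all genes did. The neutrophil genes had a median difference of -0.41, with 10 of 14 below 0, and the macrophage genes one of 0.12, against 0.003 for all genes. Single arrays moved these medians: without DSS replicate 1 they were -0.076 and 0.512, and without DSS replicate 3 they were -0.898 and -0.163. The granule genes had the lowest median of the 5 roles, -0.99, with 6 of 7 below 0. Ngp had 5.25, 5.91 and 4.74 in DAPP during DSS, against 7.40, 8.66 and 5.30 in DSS. Its difference was -1.81 ± 0.71 (interval -3.35 to -0.28, limma adjusted p = 1), and replicate 3 of DSS overlapped the DAPP arrays. Camp had 5.92, 5.65 and 5.64, against 7.12, 7.20 and 6.22, so that every DAPP during DSS array lay below every DSS array, as for 5.22% of all genes. Its difference was -1.11 ± 0.72 (limma adjusted p = 1).

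The other granule genes overlapped between the groups. Ltf had 7.93, 8.95 and 7.83 in DAPP during DSS, against 9.11, 9.17 and 8.15 in DSS (-0.57 ± 0.36), and Stfa1 had 6.97, 8.88 and 6.31, against 9.23, 9.12 and 6.81 (-1.0 ± 0.84). The difference of Stfa2 was -0.99. Retnlg had 11.77, 11.96 and 11.14, a difference of -0.28 ± 0.46 with an interval of -1.27 to 0.72. Among the receptors, Csf3r had 8.03, 8.32 and 8.11, against 8.01, 7.34 and 6.90 in DSS, a difference of 0.73 ± 0.31 (limma adjusted p = 1). It was the only 1 of the 33 genes whose DAPP during DSS arrays all lay above all DSS arrays, as 6.09% of all genes did. Clec4e had 6.72, 7.25 and 7.5, against 8.74, 7.82 and 7.48, a difference of -0.86 ± 0.36 (limma adjusted p = 1). Retnla had 5.18, 5.35 and 6.13, against 6.48, 5.75 and 5.84 (-0.47 ± 0.43), and was not nearer to its control level of 8.39 to 8.93.

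In the comparison of DAPP during DSS with DAPP before DSS, no gene was called (0% of all genes) and 4 of the 33 (Camp, Ngp, Ltf and Cx3cr1) had an unadjusted p under 0.05, as 484 of all genes did. Camp had 5.92, 5.65 and 5.64 in DAPP during DSS, against 9.85, 6.77 and 6.26 in DAPP before DSS, and Ngp had 5.25, 5.91 and 4.74, against 7.21, 8.19 and 6.21. In both genes the groups did not overlap, as for 4.05% of all genes in this direction. The differences were -1.89 ± 0.72 for Camp and -1.90 ± 0.71 for Ngp (limma adjusted p = 0.842 for each). Without replicate 1 of DAPP before DSS they were -0.78 and -1.90. Ltf stood at -0.89 ± 0.36. In the other direction, Cx3cr1 had 8.22, 7.79 and 8.16 in DAPP during DSS, against 5.93, 7.15 and 7.67 in DAPP before DSS, a difference of 1.14 ± 0.47 (limma adjusted p = 0.842), or 0.65 without that array. Ccr2 and Lyz2 also lay higher without overlap, as 3.85% of all genes did, and Fcgr3 lay lower. The median of the macrophage genes was -0.39 with all arrays and 0.17 without replicate 1 of DAPP before DSS, and that of the neutrophil genes -0.62 and -0.39. Over all arrays left out singly they spanned -0.617 to 0.17 and -0.823 to -0.388.

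**Figure D5:**
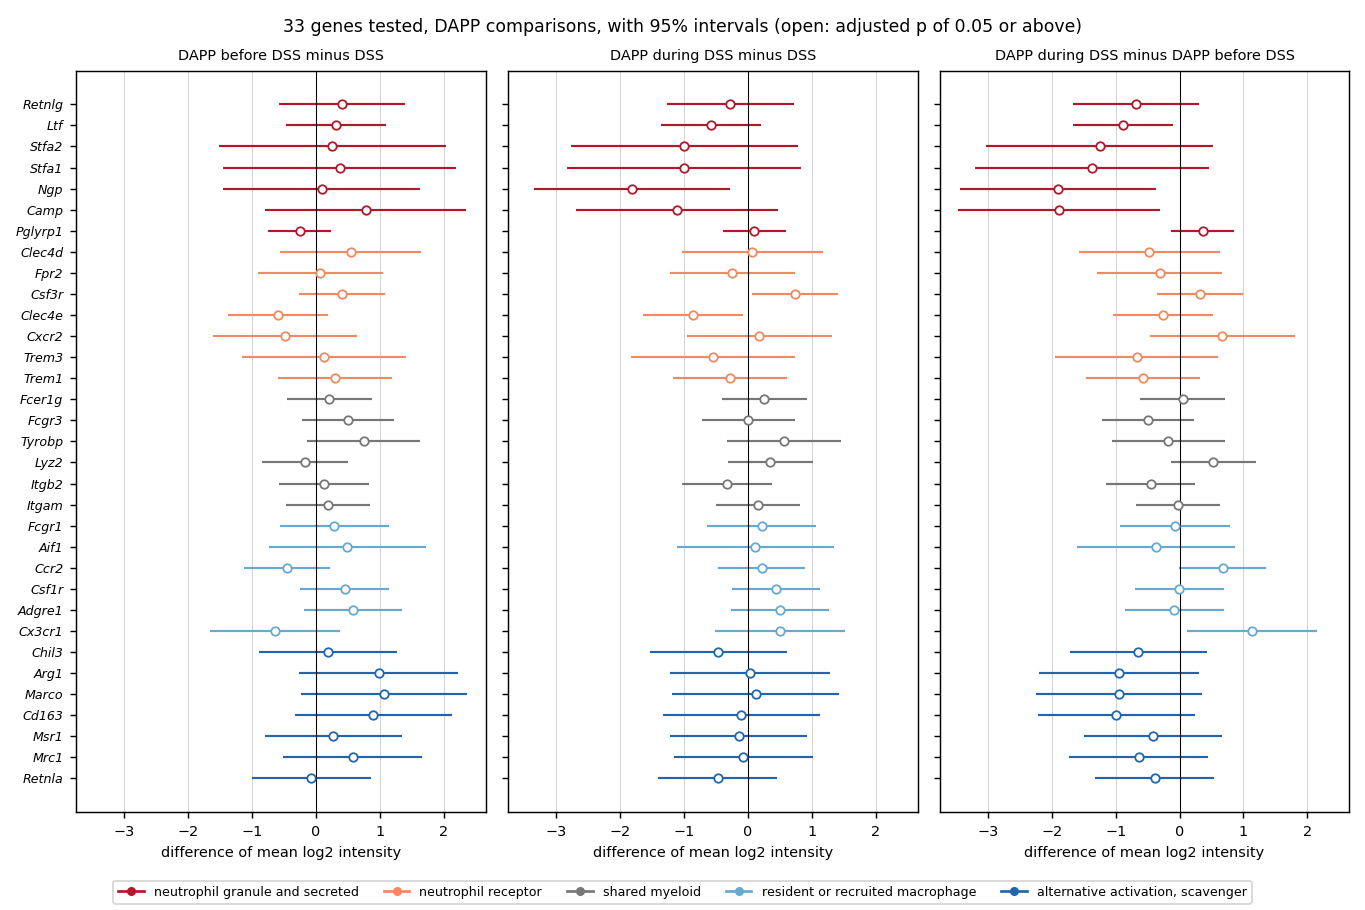
Difference of mean log2 intensity (horizontal axes) with 95% intervals from limma for the 33 tested genes in 3 comparisons: DAPP before DSS minus DSS, DAPP during DSS minus DSS, and DAPP during DSS minus DAPP before DSS. All points are open, as none passed an adjusted p of 0.05, and Ngp and Camp have the lowest values in the comparison of the DAPP groups.

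Both DAPP groups were also set against control, which the comparison of DSS with control shares. Here too, 16 of the 33 genes were detected on no control array, so a rise was built into their passing the filter. In DAPP before DSS, 26 of the 33 genes were higher than in control and 1 was lower, where 6.27% and 4.94% of all genes were called higher and lower. Without replicate 1 of that group, 24 were called. In DAPP during DSS, 20 of the 33 were higher and 1 was lower, where 4.53% and 3.15% of all genes were called. Retnla was the lower gene in both, at -2.69 ± 0.43 in DAPP before DSS (limma adjusted p = 0.00191) and -3.08 ± 0.43 in DAPP during DSS (limma adjusted p = 0.00105).

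All 14 neutrophil genes had non-overlapping groups with DAPP before DSS above control, where 14% of all genes lay higher and 15.2% lower without overlap. In DAPP during DSS it was 12 of the 14, where 18.8% of all genes lay higher and 22.1% lower. The exceptions were Camp and Ngp. Of the 14, 9 were detected on no control array and passed the filter through the DSS-treated groups. A rise was built into the passing of these 9. Camp stood at 2.17 ± 0.72 relative to control in DAPP before DSS (limma adjusted p = 0.0788) and at 0.28 ± 0.72 in DAPP during DSS (limma adjusted p = 0.881). Ngp was at least 3.20-fold higher in DAPP before DSS (limma adjusted p = 0.04), and in DAPP during DSS it overlapped the control arrays (limma adjusted p = 0.699). Without replicate 1 of DAPP before DSS the fitted difference of Ngp in that group was the same, 2.51, but the call was lost (adjusted p 0.068). Retnlg and Fpr2 had differences from control of 6.93 ± 0.46 and 5.21 ± 0.45 in DAPP before DSS, and of 6.25 ± 0.46 and 4.90 ± 0.45 in DAPP during DSS. Clec4d was at least 28.2-fold higher than in control in DAPP before DSS and at least 20.2-fold in DAPP during DSS. Whether DAPP moved Camp and Ngp apart from the other neutrophil genes was not tested, and neither differed from DSS alone past the threshold.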

How the data were processed

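Intensities of 45281 probes and a detection p-value for each were deposited by the authors for each of 12 arrays, per the file headers (1949 blank lines were left out). GenomeStudio is named in the submitters' processing notes, but neither its version nor its background setting is given in the sources used here. All raw values were 89.4 or more, and 0 sample columns were left unused. The authors' processed values, linear intensities with medians of 146.5 to 146.6 and the ranks of the raw columns, served as an alternative. Their scale looks quantile-normalised, which was inferred from the values.

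Intensities were background-corrected with limma's neqc, using the detection p-values and an offset of 16, quantile-normalised and log2-transformed (R 4.3.3, limma 3.58.1). Probes with a detection p under 0.05 on at least 3 of 12 arrays were kept (22359), named through the platform annotation updated by Entrez identifier to the RefSeq table of GRCm38.p6 (34885 probes with 1 symbol, 34807 matched; 18 with several; 10378 unnamed), and each gene was taken from its kept probe with the highest mean. A model of 4 groups was fitted (lmFit and eBayes, Benjamini-Hochberg over 11933 genes), checked on simulated data. For a bound, the dimmer group's arrays each took the gene's own signal or the lowest detected signal, whichever was higher. Array number limits the precision: 3 per group. P-values reflect only how these samples vary.

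The member genes, the other lists and the rules for naming were chosen with earlier results of these data known. All 37 member genes are accounted for; of each other list the text names the 3 genes with the largest called difference between DSS and control. Promoter windows come from RefSeq and were searched on both strands; the alignment was made with Biopython 1.88. Same-numbered replicates did not deviate together in every pair (correlations -0.321 to 0.397), so the samples were not treated as paired. Replicate 3 was the exception among the DSS-treated groups, matching its own number most closely in each comparison (0.397, 0.346 and 0.111). The replicate block among the alternatives allows for a shared replicate effect. The alternatives tried were the background correction, the offset, equal medians, the authors' values, the detection filter, the choice of probe, array weights, fits on 2 groups, a pancreas covariate, a replicate block and leaving out each array.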

Additional observations from a re-analysis of the deposited data

How the results depend on the processing

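Across all alternatives the single-gene results kept their side of the threshold in 4353 cases, lost the call in 203 and gained it in 58, with 0 reversed. With detection p under 0.01 on all 12 arrays, where only 10 of the genes could be tested, 6 were called in DSS minus control, 9 in DAPP before DSS minus control and 7 in DAPP during DSS minus control. Leaving out 1 array at a time gave 14 to 28 calls in DSS minus control, 19 to 27 in DAPP before DSS minus control, 15 to 28 in DAPP during DSS minus control, and 0 in the comparisons of DAPP with DSS and of the DAPP groups, which had 0 under every other alternative run as well. The count for DSS minus control was 17 both on the authors' values and without background correction, 18 at offset 50, 19 without the detection filter, 21 with the mean of the kept probes, 23 with a pancreas covariate, 25 with equal medians, 26 on those 2 groups alone and 28 with array weights. Equal medians moved the median of all genes to 0.143 in DSS minus control, 0.169 in DAPP during DSS minus DSS, 0.213 between the DAPP groups and 0.314 in DAPP during DSS minus control, so values there are relative to that shift. Labels share replicate numbers, and the replicate block gave 23 calls in DSS minus control, 27 and 21 in DAPP before and during DSS minus control, and 0 in the other comparisons; Ngp passed with it in DSS minus control and Itgb2 did not. The cause of these movements was not tested, apart from the smaller number of genes under the stricter filter. Low signal limits the genes near background: 16 of the 33 were undetected in control.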

Other observations

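Relatives of the member genes, picked after the members' values had been seen, were read in the same comparison of DSS with control. Retnlb, the resistin-like protein of goblet cells and the sister of Retnla and Retnlg, had 12.47, 14.86 and 14.11 on the DSS arrays, against 13.76, 12.03 and 6.88 on the control arrays. It differed more within the control group than any of the 33 member genes, and its groups overlapped (2.92 ± 1.28, limma adjusted p = 0.228). Retn itself was not detected on enough arrays to be tested. Chil1, another chitinase-like protein, was at least 8.19-fold higher (limma adjusted p = 7.84e-05), as Chil3 and Chil4 were, while Chia1, an active chitinase, was not tested. Arg2, the mitochondrial arginase, had 8.61, 9.33 and 7.92 in DSS, against 5.64, 5.19 and 5.48 in control, and rose by 3.18 ± 0.40 (limma adjusted p = 0.00055), beside the cytosolic Arg1.

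The activating antibody receptor Fcgr4 rose by 4.09 ± 0.42 (limma adjusted p = 0.00014), and the inhibitory Fcgr2b by 2.82 ± 0.25 (limma adjusted p = 4.07e-05), with 11.02, 10.28 and 9.95 in DSS, against 7.61, 7.59 and 7.58 in control. Of the lectin receptors, Clec4n (Dectin-2), encoded in the same family as Clec4d and Clec4e, rose by 2.41 ± 0.31 (limma adjusted p = 0.000661) and Clec7a (Dectin-1) by 1.77 ± 0.42 (limma adjusted p = 0.0235). Lyz1, the lysozyme of Paneth cells, did not pass (0.83 ± 0.25, limma adjusted p = 0.0759), and its sequence likeness to Lyz2 means that their probes may share signal. Cxcr1 was detected on 0 DSS arrays and 1 control array.

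Where a member had several kept probes, these did not always give the same answer. For Adgre1, Clec4e, Trem1 and Lyz2, 1 other probe is given with each gene. Adgre1, Lyz2 and Aif1 have 3 kept probes each, of which 2 are given. The other kept probes of Csf1r and Arg1 are not given. A second probe of Aif1 differed by 2.41 between DSS and control, with a limma adjusted p of 0.012 in the fit of all probes, while the brightest probe, on which the text rests, did not pass. The brightest probe of Csf3r differed by 2.58 and its other kept probes by 1.60, 0.49 and -0.08. For Stfa2 the values were 3.53 and 1.43, and for Chil3 they were 6.23, 6.02 and 5.01. Those of Stfa1 were 3.42 and 3.50, and those of Pglyrp1 1.21 and 1.79.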
